A study of Mus musculus with 9 samples.

Results

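The genes described here are 88 of the 40879 gene symbols counted in mouse spinal cord. They were chosen by name, as every symbol that starts with Cfap, Dnah, Dnai, Dnaaf, Drc or Rsph followed by a digit, together with Foxj1. RNA of whole spinal cord from wild-type mice was sequenced with a kit that reads the 3′ ends of transcripts, in 9 libraries that fall into 3 groups of 3. The first group had experimental autoimmune encephalomyelitis (EAE), an immune attack on myelin used as a model of multiple sclerosis, and was given GV1001, a peptide derived from telomerase. The second had EAE and was given vehicle, and the third was naive, without disease or treatment. Strain, sex, age, dose, day of sampling and level of the cord are not given in the sources used here. The labels do not say whether replicates are separate animals, so p-values rest on the spread between these libraries, which may in part be technical. Total counts per library ranged from 5247246 to 6174870, and 3 counts, taken as the floor of a single library, correspond to 0.486 to 0.572 CPM (normalised counts scaled to 1000000 per library). This floor covers counting error only.

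Motile cilia are whip-like projections that move fluid over a cell's surface. In the spinal cord they stand on ependymal cells, which line the central canal and keep cerebrospinal fluid moving. Inside each cilium runs the axoneme, a ring of microtubule doublets around a central pair. Dynein heavy chains (Dnah genes) form the motors of the outer and inner arms, intermediate chains (Dnai) help to anchor them, and assembly factors (Dnaaf) put the arms together in the cytoplasm before they enter the cilium. The nexin-dynein regulatory complex (Drc) links neighbouring doublets, and radial spokes (Rsph) pass signals from the central pair to the motors. The Cfap genes are named only for an association with cilia or flagella and hold proteins of many sites. The transcription factor Foxj1 switches the motile programme on, and factors of the RFX family, which bind a DNA element called the X-box, act beside it.

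What the members share at their starts was read from RefSeq promoter windows of the older build GRCm38.p6, of which the 250 bases before each annotated start were searched on both strands. A window was at hand for 55 of the 88 members. The RFX half-site GTTGCC stood in 17 of these, or 30.9%, against 11.8% of the 27025 genes with a window. A full X-box, searched as GTTNCC and GGNAAC with 2 bases between them, stood in 3 of the 55, or 5.45%, against 0.444% of all genes; an exact X-box may also hold the half-site. Among 36 other motile cilium genes with a window, 44.4% held the half-site and 0.0% the X-box, and among 29 genes of transport within cilia the shares were 24.1% and 3.45%. The forkhead core TGTTTAC, the kind of element that Foxj1 binds, stood in 3 of the 55, or 5.45%, against 3.54% of all genes. The X-box genes are shown because they carry the element whole, and Cfap43 as an example of the forkhead core. Each is written 5′ to 3′ on the strand of its gene, with the matching letters in capitals (in Cfap43 the core is read on the other strand). They lie at chr14:8666364-8666407 on the minus strand (Cfap20dc), chr16:90935009-90935052 on the minus strand (Cfap298), chr1:31222765-31222808 on the plus strand (Dnaaf6) and chr19:47837395-47837431 on the minus strand (Cfap43).
Cfap20dc: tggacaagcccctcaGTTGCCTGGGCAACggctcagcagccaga
Cfap298: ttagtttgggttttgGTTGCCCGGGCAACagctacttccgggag
Dnaaf6: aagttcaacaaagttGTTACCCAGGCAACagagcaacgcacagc
Cfap43: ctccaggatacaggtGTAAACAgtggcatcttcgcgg
A match is a description of letters and shows no binding. Transcripts of Cfap20dc, Cfap298 and Cfap43 were found in every library, whereas Dnaaf6 had no count in any, which allows up to 0.175 CPM in the GV1001, 0.181 CPM in the vehicle and 0.177 CPM in the naive libraries as a whole group.

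Of the 88 members, 49 had enough counts to be tested and 39 did not. The tested members comprised Foxj1, 9 of 15 heavy chains, 4 of 5 intermediate chains, 6 of 11 assembly factors, 2 of 3 genes of the regulatory complex, 3 of 7 radial spoke genes and 24 of 46 Cfap genes. The untested members had 0 to 78 counts over all 9 libraries, with a median of 20, and as a whole 360 counts in the GV1001, 369 in the vehicle and 336 in the naive group. Among them were Dnaaf6 and Cfap77, without a count, and genes known for sperm tails such as Rsph6a, with 5 counts in the GV1001 group, 0 in the vehicle group and 0 in the naive group. Members with close copies, such as Dnah7a, Dnah7b and Dnah7c, are uncertain because the counting could split their reads. Most tested members were rare. Their median level over all libraries was 4.86 CPM, against 20.5 CPM for all 15351 genes tested, and 3′ reads were not scaled to transcript length.

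The label of ependyma fits only part of the list. Roles or expression outside motile cilia are known for at least 10 members (Cfap20, Cfap36, Cfap97, Cfap298, Cfap410, Cfap418, Dnaaf2, Dnaaf5, Dnaaf9 and Dnaaf10). Together they took 54.8% to 57.8% of all member counts. Each had counts in every library, as had 63 of all 88 members. Foxj1 took 6.04% to 8.07%, and the other 77 members took 34.2% to 39.0%. The list of 10 is not complete. The 77 also hold Cfap69, known in mice for olfactory cilia, so they are no pure set of motile cilium genes. Genes listed for ependyma outside the axoneme were present. The surface protein Cd24a was at 39.9 to 74.3 CPM over the 9 libraries. Prom1, a protein of membrane protrusions, was at 8.30 to 17.2 CPM. Which cells of the cord made them was not tested. The choroid plexus also carries cilia, but its defining transcript Ttr was at 0 to 0.749 CPM, at or near the floor. The whole list of 7 choroid plexus genes summed to 14.1, 41.9 and 15.2 CPM with GV1001, 10.2, 11.2 and 14.7 CPM with vehicle, and 9.74, 36.1 and 7.93 CPM in naive cord. Of these, 4 passed the filter, and the high sums held 33.9 and 30.4 CPM of the water channel Aqp1, which other cells also make. Inducers of multiciliated cells were likewise near it, with Mcidas at 0 to 0.562 CPM. Gmnc was at 0 to 1.45 CPM, and 9 of its 11 counts came from GV1001 replicate 3. In whole tissue, fewer ependymal cells and less RNA per cell cannot be told apart.

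Foxj1 was even across the 9 libraries. Its level was 40.7, 48.0 and 46.9 CPM with GV1001, 39.7, 42.3 and 41.2 CPM with vehicle, and 41.5, 47.1 and 47.6 CPM in naive cord. All 3 groups overlapped, and the highest library was 1.21 times the lowest. Between EAE vehicle and naive cord the log2 fold change was −0.14 ± 0.12 (SE), with a 95% interval from −0.40 to 0.11 and an edgeR adjusted p of 0.543. Between GV1001 and vehicle it was 0.14 ± 0.12, with an interval from −0.11 to 0.39 and an edgeR adjusted p of 0.719. GV1001 and naive cord differed by −0.004 ± 0.11, with an interval from −0.26 to 0.25. A change of Foxj1 by a log2 unit in either direction lies outside each of these intervals. Within groups the variance of its counts was 1.17 times what counting error alone gives, against a median of 2.39 for the 49 tested members and 3.33 for all genes tested. On the log2 scale its SD was 0.128 with GV1001, 0.046 with vehicle and 0.108 in naive cord. The median SD was 0.352, 0.34 and 0.252 for the tested members and 0.213, 0.261 and 0.161 for all genes, in the same order. Both measures depend on count level, and the tested members were rarer than all genes.

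The even level stood beside large differences in immune transcripts. The 9 leukocyte genes summed to 58.0, 596 and 145 CPM with GV1001, 2137, 115 and 378 CPM with vehicle, and 19.3, 35.6 and 22.1 CPM in naive cord. Vehicle replicate 1 had 111 times the leukocyte sum of the lowest naive library and the lowest Foxj1 level of the 9. Whether leukocyte RNA moved the level of cilium genes was not tested. The sum over all 88 members was 659, 595 and 666 CPM with GV1001, 596, 635 and 665 CPM with vehicle, and 688, 654 and 674 CPM in naive cord, a 1.16-fold range. Without Foxj1 and those 10 members of wider use, the remaining 77 summed to 238 ± 29.7 CPM with GV1001, 232 ± 10.5 with vehicle and 242 ± 8.19 in naive cord (SD, n = 3). The lowest of these sums was 204 CPM in GV1001 replicate 2, and the groups overlapped.

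**Figure D1:**
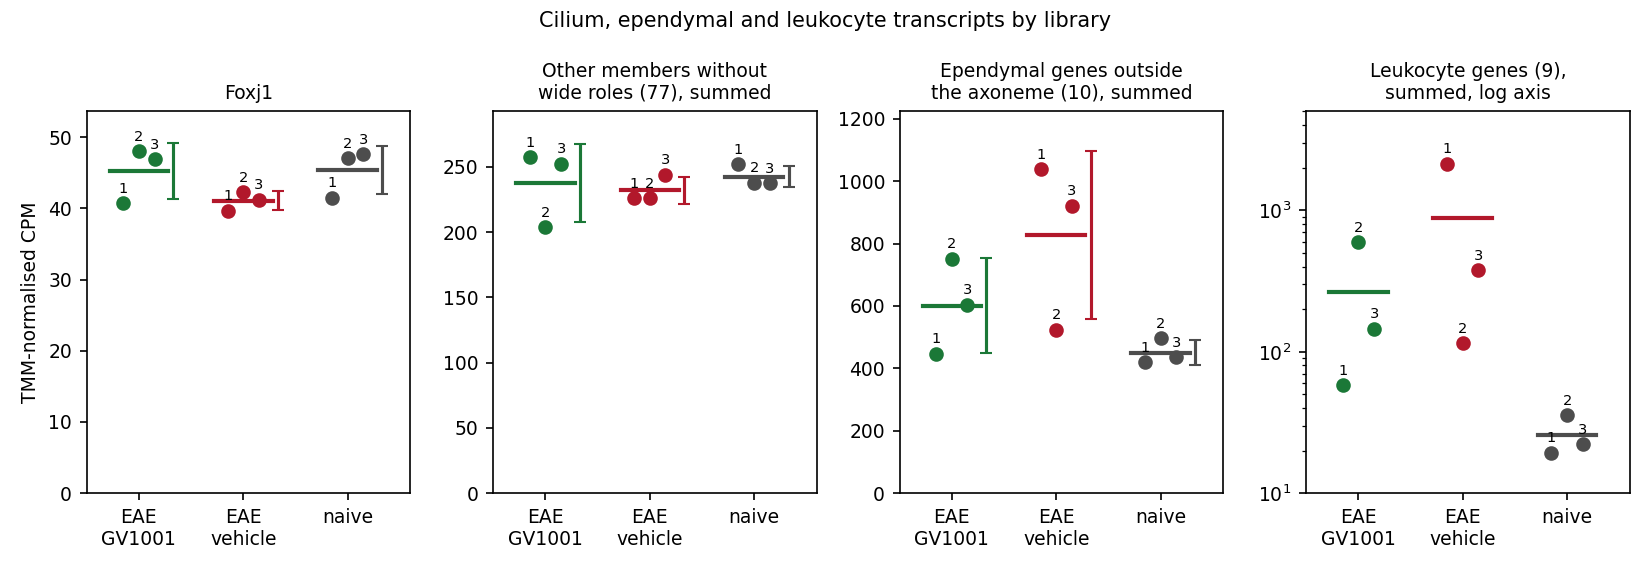
TMM-normalised CPM in each library for Foxj1, for the 77 members left without Foxj1 and the 10 of wider use, for 10 ependymal genes outside the axoneme and for 9 leukocyte genes, with EAE GV1001, EAE vehicle and naive from left to right. Points are libraries with their replicate number, horizontal lines are group means and bars are SD (n = 3, not drawn on the log axis). Foxj1 stays between 39.7 and 48.0 CPM while the leukocyte sum runs from 19.3 to 2137 CPM.

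Between EAE cord given vehicle and naive cord, the question was what differed with disease. No motile cilium gene passed the test, and most fold changes were small. Among the tested members, Drc1 and Cfap97 had the smallest p among those with lower values in vehicle. Dnah1, an inner arm heavy chain, had the smallest among those with higher values. The edgeR test with Benjamini-Hochberg adjustment called 0 of 49 members, where it called 0.0195% of all genes (3 genes, and 1652 without vehicle replicate 2). At an unadjusted p under 0.05, 1 member was higher and 2 were lower, or 2.04% and 4.08% of those tested, against 11.3% and 8.06% of all genes. DESeq2 called 0 members against 6.52% of all genes with an adjusted p, and limma-voom called 0 members against 0.0% of all genes. The median log2 fold change of the tested members was −0.11, against −0.005 over all genes, and 32 of 49 were below 0 (65.3%, against 50.5% of all genes).

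Among the heavy chains, 7 of 9 had negative fold changes, and their median was −0.36. Dnah9, an outer arm motor, had 43, 38 and 29 counts in vehicle and 45, 49 and 37 in naive libraries (−0.24 ± 0.33). Dnah12, an inner arm motor, had 41, 17 and 18 counts in vehicle and 32, 38 and 32 in naive libraries. Vehicle replicate 1 was thus the highest of these 6 libraries for Dnah12 and the other vehicle libraries the lowest. Dnah1 ran the other way, with 10, 15 and 20 counts in vehicle and 8, 3 and 8 in naive libraries. The groups did not overlap, and the log2 fold change of 1.23 ± 0.45 had an edgeR adjusted p of 0.167. Mutations in human DNAH1 are known for immotile sperm. Dnah7b, whose reads may be shared with its copies, had 30, 22 and 30 counts in vehicle and 24, 39 and 26 in naive libraries, and these overlapped.

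The intermediate chains of the outer arm were close to even, with Dnai1 at 0.30 ± 0.29 and Dnai2 at −0.04 ± 0.33. Dnai4 had 52, 31 and 50 counts in vehicle and 43, 64 and 43 in naive libraries (−0.17 ± 0.29). Of the 6 assembly factors tested, 5 were below 0. Dnaaf9, the most abundant, was at 58.9, 90.2 and 89.1 CPM in vehicle and 92.2, 94.8 and 89.0 CPM in naive libraries. Vehicle replicate 1 stood apart below the other vehicle libraries, and the log2 fold change was −0.21 ± 0.15. Dnaaf2, a factor known from human ciliary disease, was at −0.08 ± 0.24 and Dnaaf10, which works with a chaperone complex, at −0.03 ± 0.20.

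Drc1, a scaffold of the nexin-dynein regulatory complex, had 11, 15 and 15 counts in vehicle and 21, 18 and 32 in naive libraries. Every vehicle library lay below every naive library, with a log2 fold change of −0.79 ± 0.36, an interval from −1.57 to just below 0 and an edgeR adjusted p of 0.258. Ccdc65, which is not a member by name and encodes the partner subunit also called DRC2, had 16, 21 and 8 counts in vehicle and 30, 31 and 38 in naive libraries. Its log2 fold change was −1.12 ± 0.37, with an edgeR adjusted p of 0.13. Drc3, another subunit, had 18, 36 and 50 counts in vehicle and 37, 36 and 28 in naive libraries (0.04 ± 0.40), and Gas8, also called DRC4, was at 0.09 ± 0.22.

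All 3 radial spoke head genes tested were below 0. Rsph4a had 16, 7 and 12 counts in vehicle and 25, 19 and 20 in naive libraries, with no overlap, a log2 fold change of −0.86 ± 0.40 and an edgeR adjusted p of 0.271. Rsph9 had 45, 38 and 40 counts in vehicle and 53, 48 and 47 in naive libraries, also without overlap in CPM (−0.26 ± 0.21). Vehicle replicate 1 at 8.30 CPM nearly met naive replicate 2 at 8.34 CPM. Rsph1, a further head protein, was at −0.06 ± 0.36 and overlapped. Counts this low leave wide intervals: for Rsph4a it ran from −1.74 to 0.02.

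The 24 Cfap genes tested split evenly, with 12 above and 12 below 0. Cfap97 was at 25.8, 32.0 and 24.3 CPM in vehicle and 35.7, 32.3 and 36.5 CPM in naive libraries, with a log2 fold change of −0.35 ± 0.14 and an edgeR adjusted p of 0.201. Its groups were separated only by a narrow margin between vehicle replicate 2 and naive replicate 2. Cfap74, a protein of the central apparatus, had 18, 15 and 23 counts in vehicle and 9, 8 and 15 in naive libraries (0.80 ± 0.42). The abundant Cfap36, a partner of the small GTPase ARL3, averaged 76.2 ± 6.78 CPM in vehicle and 86.2 ± 9.34 CPM in naive cord (SD, n = 3). Cfap20, a protein inside the doublet wall, averaged 48.9 ± 11.4 CPM in vehicle and 42.1 ± 2.38 CPM in naive cord, and Cfap68 averaged 39.2 ± 1.69 and 38.7 ± 6.01 CPM in the same order. Cfap410, found at the base of cilia, and Cfap418, known for photoreceptor disease in humans, were at 0.22 ± 0.13 and −0.15 ± 0.17.

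For 10 of 49 tested members, the vehicle libraries lay all above or all below the naive ones. Of these, 8 were lower in vehicle (16.3%, against 11.7% of all genes) and 2 were higher (4.08%, against 12%). The 8 were Cfap97, Dnaaf11, Dnah14, Dnah6, Dnai7, Drc1, Rsph4a and Rsph9, and the 2 were Cfap74 and Dnah1. Some margins were narrow. For Dnaaf11, vehicle replicate 2 was at 4.12 CPM and naive replicate 1 at 4.15 CPM. For Cfap74, vehicle replicate 2 was at 2.81 CPM and naive replicate 3 at 2.77 CPM. For 27 of 49 members the 95% interval lay within 1 log2 unit on either side of 0 (55.1%, against 69.1% of all genes), and for the other 22, of which 21 averaged under 5 CPM, it also held differences of that size.

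**Figure D2:**
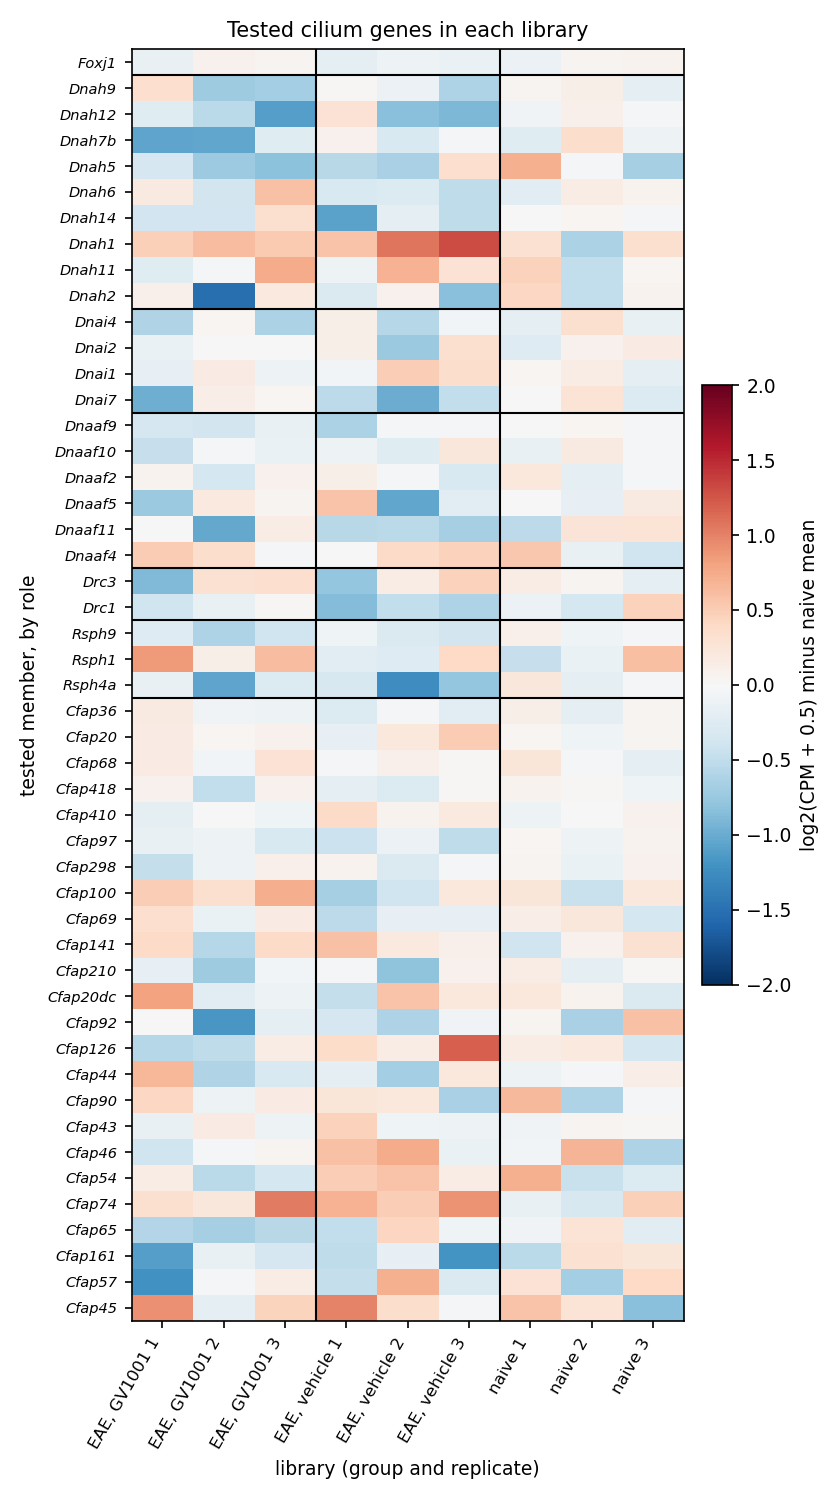
Each tested member (rows, grouped by role and ordered by mean CPM within a role) in each of the 9 libraries (columns, EAE GV1001, EAE vehicle and naive), coloured by log2 of CPM plus 0.5 minus the mean of the naive libraries. Foxj1 and the abundant Cfap genes are pale throughout, and the stronger colours sit in rare members such as Dnah1, Rsph4a and Cfap126.

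Among EAE mice, GV1001 was set against vehicle to ask what differed with the peptide. Again no motile cilium gene passed. The members with the smallest p pointed in both directions: Cfap100, which in algae takes part in the control of inner arm dyneins, had higher values with GV1001, and Cfap126, a protein of the doublet interior, and Cfap410 had lower ones. edgeR called 0 of 49 members, where it called 0.0% of all genes. At an unadjusted p under 0.05, 1 member was higher and 2 were lower, or 2.04% and 4.08%, against 4.57% and 4.51% of all genes. DESeq2 called 0 members against 0.0569% of all genes, and limma-voom called 0 against 0.0%. The median log2 fold change of the tested members was −0.05, against −0.009 over all genes, with 29 of 49 below 0 (59.2%, against 51.4% of all genes). Its sign rested on single libraries, since it was 0.048 without GV1001 replicate 2 and 0.026 without vehicle replicate 1.

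Cfap100 had 19.2, 16.9 and 22.7 CPM with GV1001, against 8.30, 10.1 and 15.7 CPM with vehicle. The groups did not overlap, although GV1001 replicate 2 and vehicle replicate 3 were close. The log2 fold change was 0.78 ± 0.27, with an interval from 0.19 to 1.37 and an edgeR adjusted p of 0.528. Cfap126 was at 2.64, 2.79 and 4.67 CPM with GV1001 and at 5.54, 4.68 and 10.1 CPM with vehicle. GV1001 replicate 3 and vehicle replicate 2 nearly met, and the log2 fold change of −1.002 ± 0.38 had an edgeR adjusted p of 0.528. Cfap410 averaged 28.6 ± 1.82 CPM with GV1001 and 35.6 ± 3.90 CPM with vehicle (SD, n = 3). On the log2 scale it differed by −0.32 ± 0.13, with an edgeR adjusted p of 0.539.

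Among the structural genes, Drc1 had 16, 21 and 26 counts with GV1001, above the 11, 15 and 15 counts with vehicle (0.57 ± 0.36). Radial spoke genes were at 0.58 ± 0.34 for Rsph1, 0.34 ± 0.43 for Rsph4a and −0.18 ± 0.22 for Rsph9, each with overlapping libraries. Heavy chains ranged from −0.70 ± 0.35 for Dnah7b to 0.67 for Dnah6, an inner arm motor, and 6 of 9 were below 0. Dnah1 had 9, 11 and 11 counts with GV1001 and 10, 15 and 20 with vehicle (−0.58 ± 0.41). Intermediate chains were between −0.34 for Dnai1 and 0.61 for Dnai7, and assembly factors between −0.17 for Dnaaf10 and 0.43 for Dnaaf11. Cfap69, known in mice for sperm tails and olfactory cilia, had 91, 70 and 94 counts with GV1001 and 50, 64 and 71 with vehicle (0.42 ± 0.22). Cfap65, known for sperm tails, had 10, 10 and 12 counts with GV1001 and 11, 23 and 17 with vehicle (−0.71 ± 0.39).

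GV1001 and vehicle libraries did not overlap for 3 higher members, Cfap100, Cfap69 and Drc1 (6.12%, against 5.95% of all genes). They did not overlap for 3 lower members, Cfap126, Cfap410 and Cfap65 (6.12%, against 4.57%). The interval lay within 1 log2 unit of 0 for 25 of 49 members (51.0%, against 71.8% of all genes). For the other 24, of which 21 averaged under 5 CPM, it also held differences of that size.

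**Figure D3:**
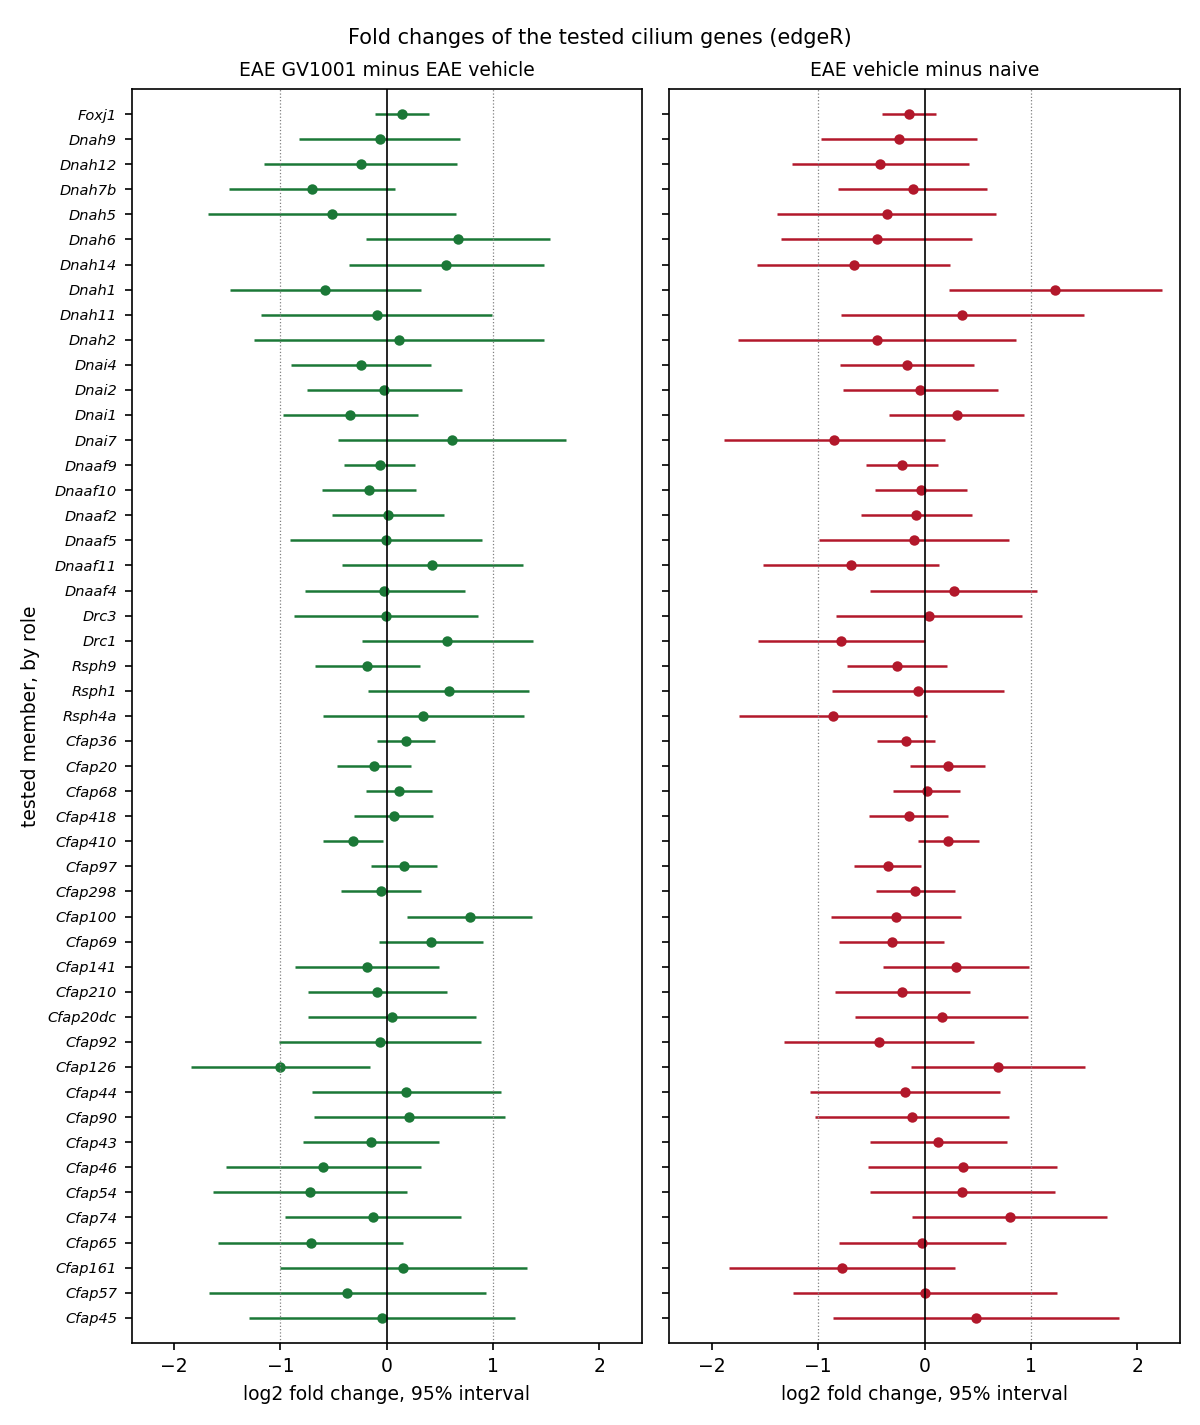
Log2 fold changes (edgeR) of the 49 tested members with 95% intervals, for EAE GV1001 minus EAE vehicle (left) and EAE vehicle minus naive (right), with dotted lines at 1 log2 unit on either side of 0. The intervals are narrow for abundant members such as Foxj1 and Cfap36 and wide for rare ones, and 0 members passed the adjusted threshold in either comparison.

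The comparison of GV1001 with naive cord shares libraries with both comparisons above, and no member passed in it. edgeR called 0 of 49 members, against 0.0% of all genes, DESeq2 called 0 against 0.237%, and limma-voom 0 against 0.0%. At an unadjusted p under 0.05, 0 members were higher, against 4.35% of all genes, and 1 was lower, or 2.04%, against 2.96%. That member was Dnah7b, with 12, 13 and 27 counts with GV1001 and 24, 39 and 26 in naive libraries (−0.82 ± 0.35, edgeR adjusted p 0.659). The median log2 fold change was −0.10, against 0.002 over all genes, and 32 of 49 were below 0 (65.3%, against 49.6%). Libraries did not overlap for Cfap100 and Dnah1, which were higher with GV1001 (4.08%, against 8.84%), and for Cfap65, Dnaaf9, Dnah12 and Rsph9, which were lower (8.16%, against 8.24%). Dnaaf9 averaged 75.7 ± 6.06 CPM with GV1001 and 92.0 ± 2.89 CPM in naive cord (SD, n = 3; −0.28 ± 0.15). The interval lay within 1 log2 unit of 0 for 24 members (49.0%, against 72.7% of all genes).

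With the 6 EAE libraries set against the 3 naive ones, the intervals narrowed and the calls stayed at 0. edgeR called 0 members against 0.00651% of all genes, DESeq2 0 against 3.34%, and limma-voom 0 against 0.0%. Foxj1 differed by −0.07 ± 0.10, with an interval from −0.29 to 0.14. At an unadjusted p under 0.05, Dnah1 was the 1 higher member (0.94 ± 0.42; 2.04%, against 8.81% of all genes) and Cfap97 the 1 lower member (−0.27 ± 0.12; 2.04%, against 6.51%). The member without overlap that was lower in every EAE library was Rsph9 (−0.35 ± 0.18; 2.04%, against 3.74% of all genes). It had 39, 32 and 41 counts with GV1001, 45, 38 and 40 with vehicle, and 53, 48 and 47 in naive libraries. The margin was narrow, with vehicle replicate 1 at 8.30 CPM and naive replicate 2 at 8.34 CPM. The member without overlap that was higher was Dnah1 (2.04%, against 4.55%). The interval lay within 1 log2 unit for 32 members (65.3%, against 76.2% of all genes), and 32 of 49 fold changes were below 0 (65.3%, against 51.0%).

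Other cilium genes gave the same count of edgeR calls. Of 50 further motile cilium genes, 36 were tested and edgeR called 0 in each comparison, with a median log2 fold change of −0.14 for GV1001 against vehicle and 0.10 for vehicle against naive. At an unadjusted p under 0.05, 0 of these were higher and 2 lower with GV1001 (0.0% and 5.56%, against 4.57% and 4.51% of all genes). In vehicle against naive, 4 were higher and 1 lower (11.1% and 2.78%, against 11.3% and 8.06%). The members' median in vehicle against naive was −0.11, so the 2 lists had medians of opposite sign. DESeq2 called 1 of the 36 in vehicle against naive, Dynlt2b, a dynein light chain that also serves the transport motor of cilia. It was at 23.9, 23.4 and 20.8 CPM with GV1001, at 30.3, 24.9 and 27.4 CPM with vehicle, and at 17.7, 17.7 and 16.0 CPM in naive cord. The difference of vehicle and naive cord was 0.68 ± 0.14 on the log2 scale (adjusted p 0.0107 in DESeq2 and 0.0703 in edgeR). Tppp3, a microtubule-binding protein and the most abundant of the list, had 231, 382 and 346 CPM with GV1001, 202, 265 and 242 CPM with vehicle and 228, 407 and 273 CPM in naive cord.

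Genes of intraflagellar transport and the BBSome, which build and serve primary as well as motile cilia, had medians near 0. Of 34 listed, all 34 were tested, edgeR called 0 in each comparison, and the median was 0.02 for GV1001 against vehicle and −0.004 for vehicle against naive. At an unadjusted edgeR p under 0.05, 0 of 34 were higher and 0 lower in the first of these comparisons, against 4.57% and 4.51% of all genes. In the second, 1 of 34 was higher and 1 lower, against 11.3% and 8.06% of all genes. Their sums ranged from 1285 CPM in vehicle replicate 1 to 1532 CPM in vehicle replicate 2. Of 14 regulators of multiciliated cells, 7 were tested, and edgeR and DESeq2 called 0 of these in each comparison. Their median was −0.048 for GV1001 against vehicle (range −0.571 to 0.791). For vehicle against naive it was −0.013 (range −0.465 to 0.395). Among them, Rfx3 was at 25.1, 21.5 and 22.2 CPM with GV1001 and at 23.6, 22.6 and 31.2 CPM with vehicle. In naive cord Rfx3 was at 30.1, 24.8 and 23.4 CPM.

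Several ependymal genes outside the axoneme had higher values in vehicle than in naive cord. Of the 10, all were tested, and in vehicle against naive their median was 0.295 on the log2 scale, with 8 above 0 and 2 below. edgeR called 0, and 4 were higher in vehicle than in naive cord at an unadjusted p under 0.05 (40.0%, against 11.3% of all genes). DESeq2 called the same 4 genes, where it called 6.52% of all genes. These were the intermediate filament Vim (2.16 ± 0.41), the membrane protein Tm4sf1 (1.27 ± 0.28), the secreted protein Mia (1.18 ± 0.32) and the chemoattractant Rarres2 (1.10 ± 0.36), with adjusted p of 0.00164, 0.0008, 0.0176 and 0.0303 in DESeq2 and of 0.0673, 0.0703, 0.0857 and 0.127 in edgeR. Vim was at 119, 286 and 170 CPM with GV1001, 534, 164 and 419 CPM with vehicle, and 71.1, 104 and 75.04 CPM in naive cord. Reactive astrocytes also make Vim, and the 8 reactive astrocyte genes summed to 569, 1676 and 1049 CPM with GV1001, 2877, 990 and 1731 CPM with vehicle, and 620, 916 and 712 CPM in naive cord. The part of astrocytes and other cells in these genes was not tested.

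**Figure D4:**
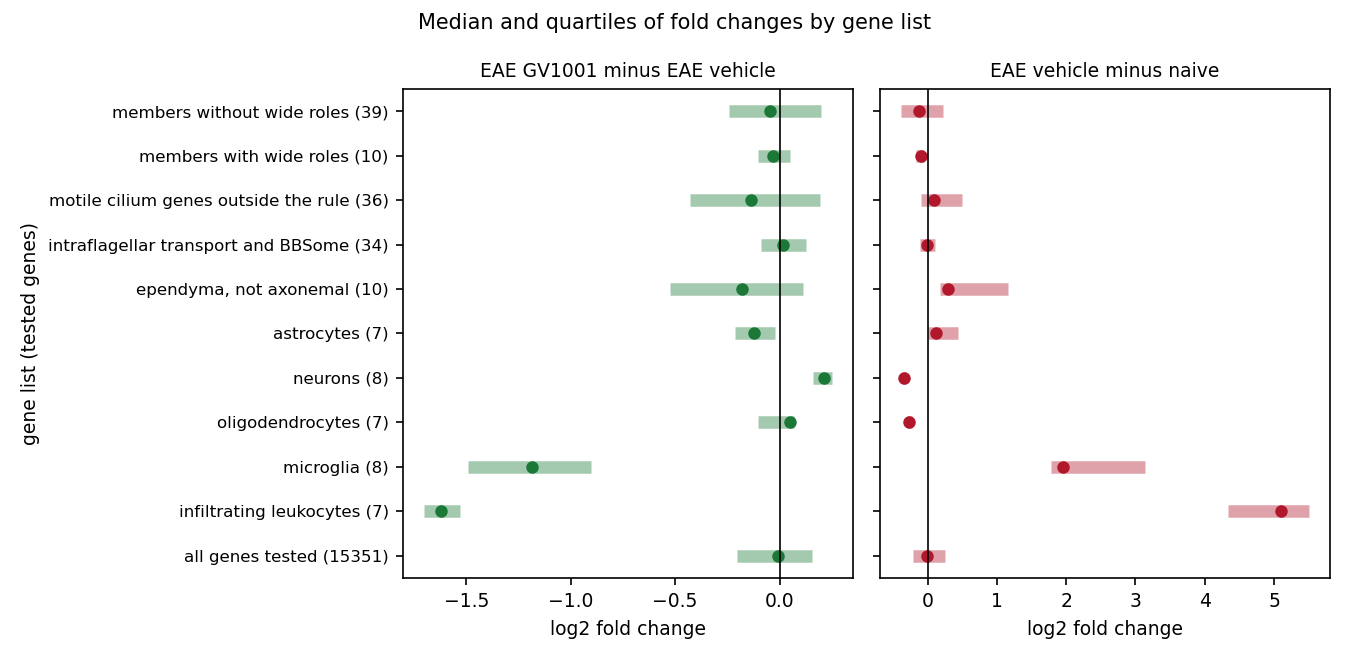
Median (points) and quartiles (bars) of edgeR log2 fold changes over the tested genes of each list, for EAE GV1001 minus EAE vehicle (left) and EAE vehicle minus naive (right), with the number of tested genes in brackets. The cilium lists lie near 0 beside all genes tested. The microglia list (medians −1.18 left and 1.96 right) and the leukocyte list (−1.62 and 5.10) lie apart from all genes. On the right, the neuron (median −0.334) and oligodendrocyte (−0.272) bars lie below that of all genes, and the ependyma bar reaches 1.16. The panels have different scales.

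Cells that border the central canal gave a further value beside the cilium genes. Pkd2l1, the channel that marks neurons contacting the cerebrospinal fluid, was at 10.4, 8.73 and 10.3 CPM with GV1001, at 6.09, 5.99 and 7.93 CPM with vehicle, and at 11.6, 12.8 and 12.7 CPM in naive cord. Its vehicle libraries lay below all others (−0.88 ± 0.21 in vehicle against naive; adjusted p 0.0349 in DESeq2 and 0.0725 in edgeR). Of the 4 tested genes listed for these neurons, the other 3 were above 0 in vehicle against naive, and the median of the list was 0.264. Gata3 was at 0.93, Gata2 at 0.49 ± 0.27 and Espn at 0.04, and other cells also express each of them. Hox genes mark the level along the cord. The cervical and thoracic set of 10 summed to 774, 700 and 776 CPM with GV1001, 649, 842 and 692 CPM with vehicle, and 906, 906 and 893 CPM in naive cord, without overlap between EAE and naive libraries. The set of 10 for lower levels of the cord starts with Hoxc9 and Hoxd9 and was not lumbosacral alone. It summed to 344, 255 and 321 CPM, 250.5, 301 and 257 CPM, and 341, 189 and 302 CPM in the same order, with overlap. In vehicle against naive, neuron genes had a median log2 fold change of −0.33, with 8 of 8 below 0, and oligodendrocyte genes one of −0.27. Skeletal muscle genes summed to 4334, 1126 and 406 CPM with GV1001 and 108, 480 and 18.1 CPM with vehicle. In naive cord they summed to 22.7, 30.0 and 223 CPM. Nerve root genes summed to 2232, 2313 and 3215 CPM, 525, 1449 and 2275 CPM, and 1400, 893.5 and 1428 CPM in the same order. The libraries thus differed by up to 240 and 6.12 times. In both lists every GV1001 library lay above every naive library, so these differences cannot be told apart from group. Whether tissue sampled beside the cord, or its level, moved the cilium genes was not tested.

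Among the 49 tested members, GV1001 replicate 2 was the lowest library for 20.4%, against 10% of all genes, and the highest for 2.04%, against 6.83%. Vehicle replicate 1 was the lowest for 18.4%, against 21.2% of all genes, and the highest for 12.2%, against 24.3%. Naive replicate 1 was the lowest for 2.04%, against 10.4% of all genes, and the highest for 18.4%, against 9.93%. Relative to the naive mean, the members' mean log2 value (CPM plus 0.5) was −0.099, −0.256 and 0.011 with GV1001, −0.095, −0.100 and −0.054 with vehicle, and 0.064, −0.050 and −0.014 in naive cord. The GV1001 libraries overlapped both other groups in this value. Every vehicle library lay below every naive library, by a margin of 0.004 between the nearest.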

How the data were processed

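Raw read counts for each gene symbol were deposited, per the title line of the authors' table, and the 9 single-library files hold equal counts. The submitters' processing notes name FastQC, STAR, HTSeq and the build GRCm39. Versions, the annotation, strand setting and use of molecular identifiers are not given in the sources used here. Libraries were made with a QuantSeq 3′ kit, and RNA was extracted by either of 2 methods, per the labels' protocols, which do not assign them to samples.

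Groups were taken from sample titles. Genes were filtered with filterByExpr (minimum count 10), which left 15351 genes, and normalised by TMM, and CPM are on that scale. The main test was edgeR's quasi-likelihood F test (version 4.0.16) over all 9 libraries, with 1 coefficient per group, Benjamini-Hochberg adjustment over all genes and a threshold of 0.05. Standard errors were derived from the F statistic and 95% intervals from its degrees of freedom. DESeq2 1.42.0 (without that filter; genes with NA left out) and limma-voom (limma 3.58.1) in R 4.3.3 were alternatives, beside other normalisations, filters, a replicate block and leaving out each library. The procedure was also run on counts simulated with dispersions fitted to these data. The outcome is not given here, so that run is no measure of power for rare members. The members and lists were chosen with earlier results of these data known. Members described one by one were Foxj1, the 3 most abundant of each role (5 for Cfap) and the 5 with the smallest p per comparison; others are named by a count they belong to. Of each other list, its calls and abundant genes were eligible, and Ccdc65, Gas8, Cd24a, Prom1, Ttr, Aqp1, Gata3, Espn, Mcidas, Gmnc, Dnah6, Dnai7, Dnaaf11 and Rsph6a were chosen after their values were seen. Python 3.11.15 with matplotlib 3.10.9 drew the figures.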

Additional observations from a re-analysis of the deposited data

How the results depend on the processing

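The count of members past the adjusted threshold was 0 in all 4 comparisons under every alternative run: DESeq2, limma-voom, the older quasi-likelihood form, RLE factors, library totals, upper quartile factors, no filter, a mean of at least 5 CPM, the replicate block and leaving out each library, and, in the 3 comparisons of single groups, the groups compared alone. The median log2 fold change of the members lay between −0.17 and −0.05 without single libraries in vehicle against naive (−0.11 with all), between −0.18 and −0.07 in GV1001 against naive and between −0.15 and −0.06 in both EAE groups against naive. In GV1001 against vehicle it lay between −0.11 and 0.05, with a change of sign to 0.048 without GV1001 replicate 2 and to 0.026 without vehicle replicate 1, and the cause was not tested. Under the other alternatives these medians ran from −0.130 to −0.065, −0.132 to −0.039, −0.119 to −0.056 and −0.063 to −0.015 in the same order. Foxj1 stayed between −0.21 and −0.11 in vehicle against naive and between 0.10 and 0.21 in GV1001 against vehicle. The smallest adjusted p of any member described one by one was 0.0623, for Cfap97 in vehicle against naive without vehicle replicate 2.

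The counts over all genes depended far more on the processing. In vehicle against naive they were 3 in the test reported and 1105 in DESeq2, 0 in limma-voom, 543 without a filter, 20 with library totals, 14 with those groups alone and 0 to 1652 without single libraries (0 without any 1 naive library or GV1001 replicate 3, 81 once GV1001 replicate 1 was left out, and 1652 in the absence of vehicle replicate 2). In GV1001 against vehicle DESeq2 called 12 and leaving out single libraries gave 0 to 8, the highest without vehicle replicate 2. In GV1001 against naive the alternatives gave 0 to 45, and in both EAE groups against naive 0 to 565, where the test reported gave 1 and leaving out vehicle replicate 2 gave 514. With the replicate number as a block, 0 genes were called in vehicle against naive and the members' median was −0.11. Deviations from group means correlated above 0.1 in 2 of the 9 pairs with 1 number, and libraries correlated best with their own number in 5 of 18 cases. The labels do not say what the numbers mean. With 3 libraries per group, these correlations cannot tell whether a number marks a shared batch. Of the 88 members, 39 had too few counts to be tested.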
